A study of Auricularia auricula-judae with 2 samples.

Results

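Peptidyl-Lys metalloendopeptidase is a secreted zinc protease that cuts proteins just before lysine residues, and 6 assembled genes of Auricularia auricula-judae, the wood-ear mushroom, matched it. They were chosen by level and description, as all genes with this Swiss-Prot description on any isoform and 100 or more scaled reads, which are the sum, over both columns and all isoforms, of a pair of scaled values the authors give for each transcript. All 6 genes with the description passed that minimum, out of 43428 assembled genes in all and 8249 with 100 or more scaled reads, which are called measured genes here. The lowest member held 421 scaled reads (TBIU007355) and the next 433 (TBIU020544), and no gene with the description lay under the minimum. The measured values that chose the members were thus the scaled reads, and the group was proposed with its ratios already known, so everything given on its direction is a description of 2 libraries and no test.

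The 2 libraries came from fruit bodies, 1 library per group. In the irradiated group, mycelium grown for 14 days at 25 °C on potato dextrose agar received 200 Gy of gamma radiation, and in the control group it received none (0 Gy). Both groups then grew for 30 days at 25 °C in sawdust with rice bran and were brought to fruit at 18 °C with 90% humidity. The strain is not named in the labels. RNA was taken from the fruit bodies, so values describe tissue that grew after the exposure, and a lower value can stand for fewer cells of a type or less RNA per cell, which cannot be told apart in whole tissue. The sources used here do not say how many fruit bodies went into each library.

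Enzymes of this kind are known from the fruit bodies of wood-decaying basidiomycetes such as Grifola frondosa, Armillaria mellea and Pleurotus ostreatus. They belong to the deuterolysin family of metalloproteases and are made as inactive precursors that lose a leader before the enzyme works. Their narrow cut before lysine is used in protein mass spectrometry, under the name Lys-N. What they digest in the mushroom itself is less well known.

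The 6 genes formed 2 levels in the control library, 4 genes at 320.6 to 5249 FPKM and 2 genes at 18.8 and 21.1 FPKM, where FPKM are fragments per kilobase of transcript scaled to library size. The 4 abundant genes were lower in the irradiated library by 4.23-fold to 7.07-fold on FPKM + 1, and the 2 scarce genes stayed within 2-fold, 1 lower and 1 higher. The most abundant gene (TBIU018746) was listed at 5249 FPKM in control and 742 FPKM in irradiated fruit bodies. Only 5 assembled genes stood above it in the control library, against 134 in the irradiated library. Its log2 ratio of irradiated over control, computed on FPKM + 1 as for all ratios here, was -2.82.

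The second gene (TBIU058247) had 1069 FPKM in control and 174.9 FPKM in irradiated fruit bodies, a log2 ratio of -2.60. It placed 92nd of all assembled genes in control and 999th in irradiated fruit bodies. This gene and TBIU018746 share the assembly cluster TR27641, as separate genes from different components of it. Reads shared between them were not tested, so they may not be independent. Summed, the cluster had 6318 FPKM in control and 917 FPKM in irradiated fruit bodies, a log2 ratio of -2.78.

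The other abundant genes came from clusters of their own. TBIU010678, of cluster TR23324, had 579 FPKM in control and 136 FPKM in irradiated fruit bodies, a log2 ratio of -2.08. TBIU053188, of cluster TR16555, had 320.6 FPKM in control and 56.8 FPKM in irradiated fruit bodies, a log2 ratio of -2.48. The 4 abundant genes thus came from 3 assembly clusters.

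The scarce genes had ratios of opposite sign. TBIU020544, of cluster TR28409, had 21.1 FPKM in control and 12.6 FPKM in irradiated fruit bodies, a log2 ratio of -0.70. TBIU007355, of cluster TR20670, had 18.8 FPKM in control and 26.7 FPKM in irradiated fruit bodies, a log2 ratio of 0.49, and was the single member higher in the irradiated library. None of the 5 clusters held a transcript with another description, as all 9 of their transcripts carried this one.

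**Figure D1:**
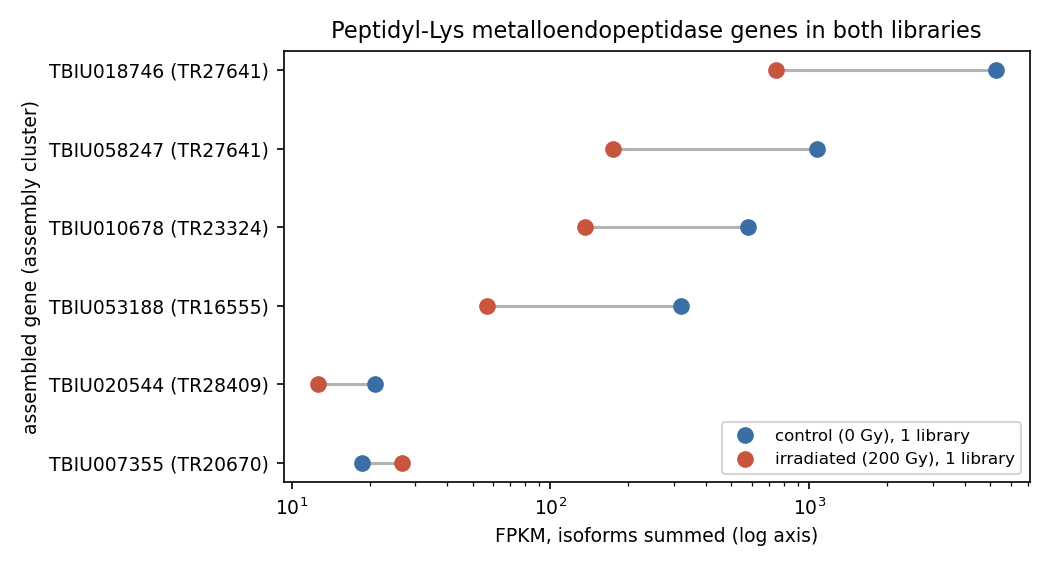
FPKM of the 6 peptidyl-Lys metalloendopeptidase genes, isoforms summed, on a log axis, with 1 point for the control library (blue) and 1 for the irradiated library (red) and a grey line joining them. There are no error bars, since each group is 1 library. The 4 genes at 320.6 to 5249 FPKM in the control library lie to the left in the irradiated library, and TBIU007355 is the gene that lies to the right.

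Each group had 1 library, so no spread between samples is available. The authors' scaled values, treated here as read counts, give approximate counting error alone, as a 95% interval of their log2 ratio. They behave as reads divided by an unknown factor per library, so the true width may differ. That interval ran from -2.93 to -2.86 for TBIU018746, from -2.77 to -2.61 for TBIU058247, from -2.23 to -2.10 for TBIU010678 and from -2.68 to -2.31 for TBIU053188. All of these lie beyond 2-fold. The first 3 do not contain the FPKM log2 ratio of their gene, which is slightly nearer 0. The 2 quantities are scaled differently, and the authors' ratio was the lower one for each member. Over all transcripts the scaled values summed to about 8872430 and 8404060, against FPKM sums of 970111 in control and 983895 in irradiated fruit bodies. The intervals do not cover this difference in scaling. For TBIU020544 the interval of -1.11 to -0.53 reached past 2-fold, and for TBIU007355 it was 0.15 to 0.72. Variation among fruit bodies, or from harvest and preparation of the libraries, is outside these intervals.

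The counts stand beside the background of all measured genes. Of the 6 genes, 4 were at least 2-fold lower after irradiation, against 8.68% of the 8249 measured genes. No member was at least 2-fold higher, against 9.32%. By any amount, 5 of the 6 were lower, against 44.1%. The same 4 genes were at least 4-fold lower, against 1.53% of measured genes. Counted from the lowest ratio, TBIU018746 was 23rd of the 8249 genes, TBIU058247 38th, TBIU053188 45th and TBIU010678 104th, while TBIU020544 was 1229th and TBIU007355 5900th. The median log2 ratio was -2.28 over the 6 members and 0.10 over all measured genes. Among abundant genes, whose average over the 2 libraries was 100 FPKM or more, 10% of 1856 genes were at least 2-fold lower. The 4 abundant members belong to that class. Because the members were proposed with these ratios in view, nothing further is read from the counts.

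**Figure D2:**
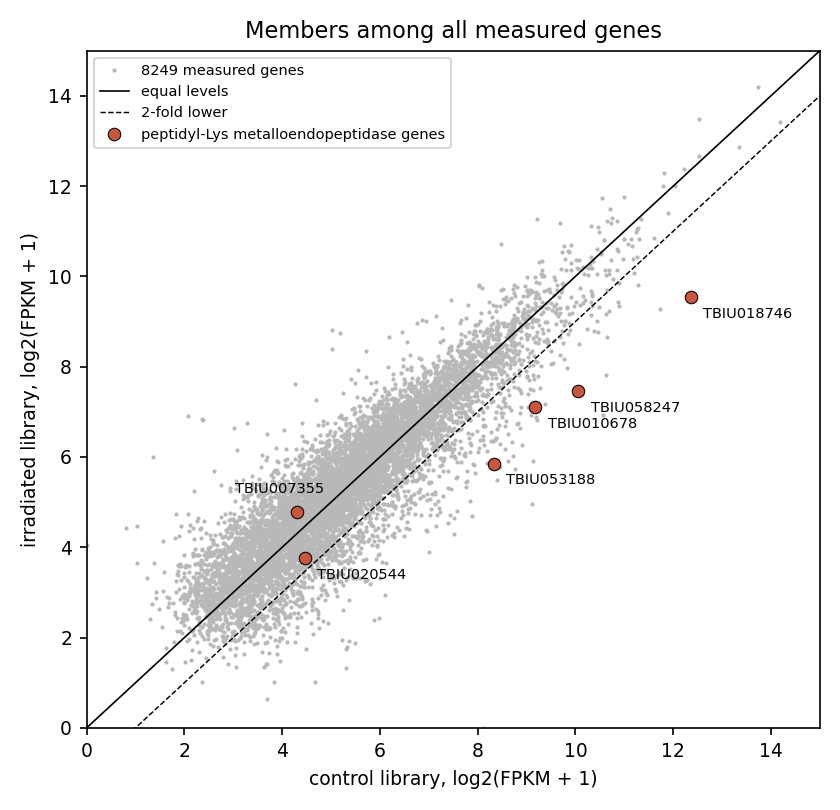
Level of each of the 8249 measured genes (grey) and of the 6 peptidyl-Lys metalloendopeptidase genes (red) as log2(FPKM + 1) in the control library (horizontal) and the irradiated library (vertical). The solid line marks equal levels and the dashed line a 2-fold lower level on this scale. TBIU018746, TBIU058247, TBIU010678 and TBIU053188 lie below the dashed line, and TBIU020544 and TBIU007355 lie inside the cloud of other genes.

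Together the 6 genes held 7257 FPKM in the control library, which is 0.75% of that library's summed FPKM, and 1149 FPKM or 0.12% in the irradiated library. The sum was 6.32-fold lower in the irradiated library. TBIU018746 made up 72.3% of the members' FPKM in the control and 64.6% in the irradiated library. The loss of 4507 FPKM by this gene was the second largest of all assembled genes, after polyubiquitin (UBQ11, TBIU011426), the precursor of the tag that marks proteins for breakdown. UBQ11 had 18666 FPKM in control and 10944 FPKM in irradiated fruit bodies, a log2 ratio of -0.77, so its loss came from a smaller ratio at a higher level.

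The order of the levels was nearly the same in both libraries. In the control library TBIU018746 stood 4.91-fold above TBIU058247, which stood 1.85-fold above TBIU010678, which stood 1.81-fold above TBIU053188. The widest step, 15.2-fold, separated TBIU053188 from TBIU020544, which stood 1.12-fold above TBIU007355. In the irradiated library the first 4 kept their order, with TBIU058247 1.29-fold above TBIU010678. The last 2 traded places there, with TBIU007355 2.12-fold above TBIU020544, and TBIU053188 stood 2.13-fold above TBIU007355. From the highest to the lowest member the levels spanned 279-fold in the control and 58.8-fold in the irradiated library. Without replicates, no neighbours in this order can be said to differ beyond a spread between samples.

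The members also differed in how their transcripts were assembled. TBIU018746, TBIU010678, TBIU020544 and TBIU007355 had 1 transcript each, TBIU053188 had 2 and TBIU058247 had 3. Of the 9 transcripts, 7 had the same Swiss-Prot entry as their match, and the other 2, both isoforms of TBIU058247, matched a second entry with the same description. An effective length can be estimated from scaled values over FPKM, with an error of at most 2.71% from pooling the libraries. It was 1899 bases for TBIU010678, 1489 for TBIU020544, 1140 for TBIU018746 and 1071 for TBIU007355. The 3 isoforms of TBIU058247 were estimated at 834 to 978 bases. The isoforms of TBIU053188 were shorter, at 829 and 493 bases. Whether the shorter transcripts are complete was not tested.

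The isoforms of TBIU058247 did not have the same ratio. Isoform 5, which carries the gene's identifier, had 843 FPKM in control and 115 FPKM in irradiated fruit bodies, a log2 ratio of -2.86. Isoform 6 (TBIU058248) had 133.7 FPKM in control and 22.2 FPKM in irradiated fruit bodies, a log2 ratio of -2.54. Isoform 2 (TBIU058246) had 91.95 FPKM in control and 37.75 FPKM in irradiated fruit bodies, a log2 ratio of -1.26. All 3 were lower in the irradiated library, isoform 2 least.

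The share of isoform 2 in the FPKM of TBIU058247 was 8.6% in control and 21.6% in irradiated fruit bodies. That of isoform 5 was 78.9% in the control and 65.7% in the irradiated library, and that of isoform 6 was 12.5% and 12.7%. The counting interval of the authors' log2 ratio was -1.56 to -1.16 for isoform 2, which does not overlap that of isoform 5 at -3.05 to -2.85 or that of isoform 6 at -2.92 to -2.42. Isoforms 2 and 6 have the second Swiss-Prot entry as their match and isoform 5 the first, so the ratios did not follow the matched entry. The sources used here do not say how reads shared by the isoforms were divided, and the intervals do not cover that step.

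The isoforms of TBIU053188 were closer together. Isoform 1 (TBIU053187) had 78.1 FPKM in control and 18.8 FPKM in irradiated fruit bodies, a log2 ratio of -2.0. Isoform 2 (TBIU053188) had 242.5 FPKM in control and 38.0 FPKM in irradiated fruit bodies, a log2 ratio of -2.64. The authors' log2 ratio had an interval of -2.42 to -1.85 for the first and of -3.0 to -2.50 for the second, which just miss each other. These intervals too do not cover how shared reads were divided, so a difference between the isoforms was not tested. The shorter isoform held 75.7% of the gene's FPKM in the control and 67.0% in the irradiated library.

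**Figure D3:**
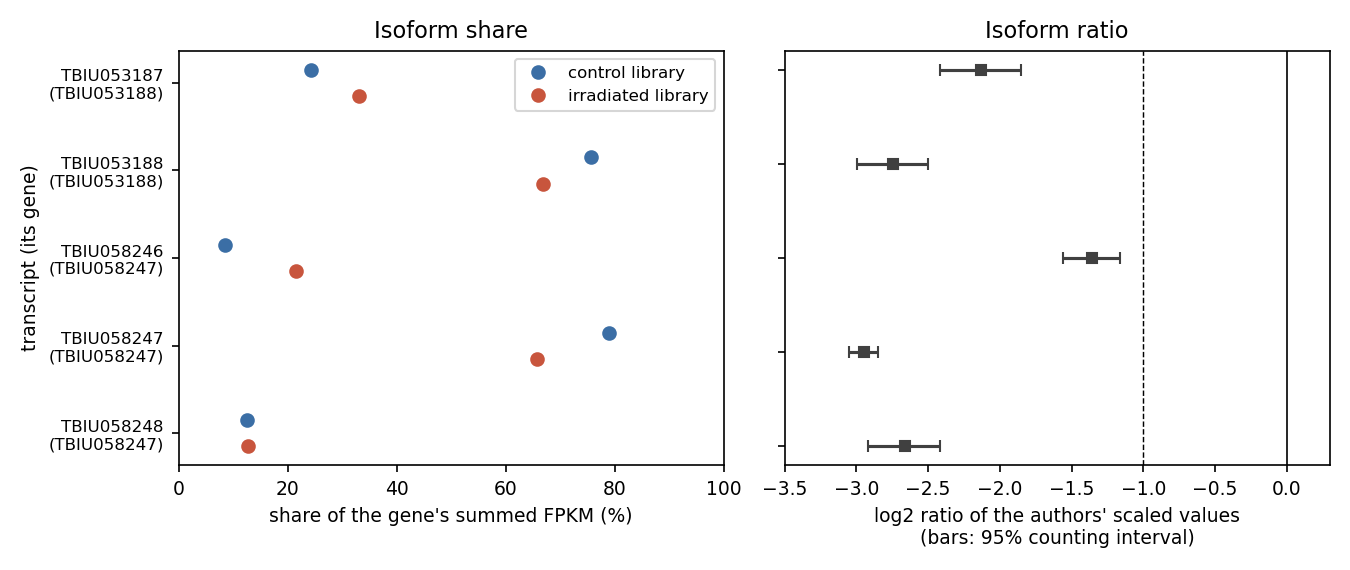
Isoforms of the 2 peptidyl-Lys metalloendopeptidase genes with more than 1 transcript, with the gene in brackets. The left panel gives each isoform's share of its gene's summed FPKM in percent, in the control (blue) and irradiated (red) library. On the right is the log2 ratio of the authors' scaled values with approximate 95% counting intervals. The solid line there marks 0 and the dashed line 2-fold lower. TBIU058246 went from 8.6% to 21.6% of its gene and has the ratio nearest 0.

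In the authors' deposited table the log2 fold changes of the 9 transcripts ran from -2.95 for TBIU058247 to 0.433 for TBIU007355. The p-values in the authors' deposited table ran from 0.160 to 0.828 for them, and the q-value was 1 for all 57717 transcripts. None of the 9 was among the 1342 transcripts that the authors' deposited table marks as selected at a p-value of 0.05. The sources used here do not name the test behind these values.

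The genes most like TBIU018746 were taken among measured genes with a description, by the distance from it in the plane of log2(FPKM + 1) of both libraries, which rests on 2 values per gene. The nearest was Pdcd6 (TBIU017228), named for a calcium-binding protein of mammals, with 3379 FPKM in control and 616 FPKM in irradiated fruit bodies, at a distance of 0.69. Its log2 ratio was -2.45, and its loss of FPKM was the fourth largest of all assembled genes. Pdcd6 held only 5151 scaled reads, against 58980 for TBIU018746. Scaled values over FPKM thus put it at a much shorter length, at which few reads give a high FPKM. Whether this transcript is complete was not tested. The next were a cytochrome P450 match (Cyp4d10, TBIU021397), a histone H2A gene (H2A_AGABI, TBIU004504), a peroxidase (msp2, TBIU016504) and a cyclin match (PCL9, TBIU025622), at distances of 1.41 to 1.63. Their log2 ratios lay between -1.43 and -0.71, nearer 0 than that of any of the 4 abundant members.

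Other proteases were counted in lists to set the members beside. Over 78 measured genes of other proteases and peptide transporters, 8 were at least 2-fold lower and 11 at least 2-fold higher after irradiation, with a median log2 ratio of 0.00. The shares over all measured genes, 8.68% lower and 9.32% higher, are the background for these counts and for those of the single lists, and with so few genes nothing particular to a list is read from them. Of 11 other metalloprotease genes, 0 were at least 2-fold lower and 3 were at least 2-fold higher, with a median of 0.49. The list is not all secreted enzymes, since it also matched the cell-internal WLM-domain protease SPCC1442.07c (TBIU003074), its most abundant gene at 75.5 FPKM in control and 49.4 FPKM in irradiated fruit bodies. An extracellular metalloprotease (MEP1, TBIU022826) had 5.73 FPKM in control and 24.6 FPKM in irradiated fruit bodies, a log2 ratio of 1.93. A second MEP1 gene (TBIU013979) had 73.5 FPKM in control and 48.3 FPKM in irradiated fruit bodies, a log2 ratio of -0.60. A further 6 transcripts share the symbol MEP but are described as an extracellular metalloproteinase, and were not counted as members.

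Of 9 genes matched by name as aspartic proteases, 4 were at least 2-fold lower and 1 higher, with a median log2 ratio of -0.20. The list is not all aspartic enzymes, since it also matched aspergillopepsin-2, an acid protease of another class. An aspergillopepsin-2 gene (PRTA_ASPNG, TBIU005273) had 21.3 FPKM in control and 2.33 FPKM in irradiated fruit bodies, a log2 ratio of -2.74. Another gene of the same description (TBIU004473) had 15.01 FPKM in control and 45.6 FPKM in irradiated fruit bodies, a log2 ratio of 1.54. The most abundant of the list, a polyporopepsin (CARP_IRPLA, TBIU013383), had 420.3 FPKM in control and 364.9 FPKM in irradiated fruit bodies, a log2 ratio of -0.20. The 4 lower genes of this list had at most 103.6 FPKM in control fruit bodies, below each of the 4 abundant peptidyl-Lys genes.

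Of 17 serine protease genes, 0 were at least 2-fold lower and 2 at least 2-fold higher, with a median log2 ratio of -0.05. The most abundant was a subtilisin-like protease (CPC735_031240, TBIU020806), at 1036 FPKM in control and 690.4 FPKM in irradiated fruit bodies, a log2 ratio of -0.59. In the control library it was about as abundant as the second peptidyl-Lys gene TBIU058247, and in the irradiated library TBIU058247 was the lower. Of 34 genes matched as exopeptidases, enzymes that trim peptides from their ends, 4 were at least 2-fold lower and 4 at least 2-fold higher, with a median of 0.21. The lowest of these genes, TBIU022631 with a log2 ratio of -1.93, is described by its main isoform as the DNA endonuclease mus-81, and another isoform alone matched an aminopeptidase. The most abundant of the list, carboxypeptidase cpdS (TBIU023729), had 358 FPKM in control and 124.7 FPKM in irradiated fruit bodies, a log2 ratio of -1.51. Of 7 peptide transporter genes, 1 was at least 2-fold higher and 0 were lower, with a median of -0.02. The single gene described as a protease inhibitor was not among the measured genes.

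**Figure D4:**
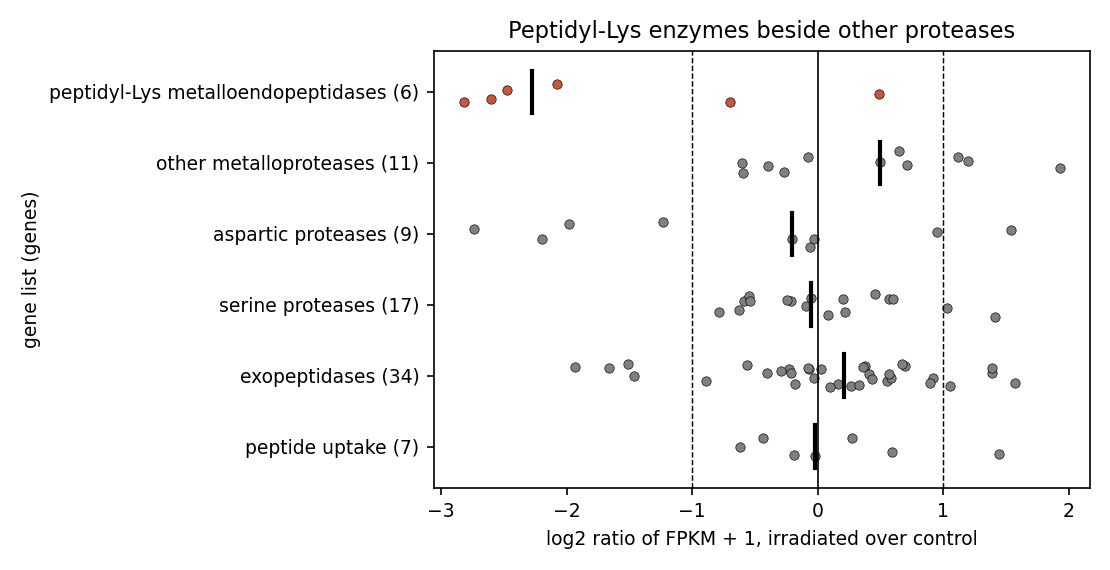
Log2 ratio of FPKM + 1, irradiated over control, of each measured gene (points, shifted vertically at random for legibility) in the 6 peptidyl-Lys metalloendopeptidase genes (red) and 5 lists of other proteases and peptide transporters (grey). The thick bar is the list median, the solid line 0 and the dashed lines 2-fold. The medians are -2.28 for the peptidyl-Lys genes and -0.20 to 0.49 for the other lists.

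For the series as a whole, the 57717 transcripts had an FPKM sum of 970111 for control and 983895 for irradiated fruit bodies, and the authors' pairs of scaled values had sums of about 8872430 and 8404060. Descriptions were present for 21855 transcripts, so further genes of this enzyme without one would be missed. As a check of the tissue, 10 of 12 genes whose description names a fruiting body protein, a lectin or an ostreolysin were measured. Of these 10, 1 was at least 2-fold lower and 0 higher, against 8.68% and 9.32% of all measured genes. Their median log2 ratio was -0.16, and with so few genes nothing is read from the counts. The text match also took in receptor kinases with a lectin domain, and the lower gene was such a match (LECRK54, TBIU007473, log2 ratio -1.52). The ostreolysin gene (OlyA6, TBIU057057), a protein known from oyster mushroom fruit bodies, had 1137 FPKM in control and 683 FPKM in irradiated fruit bodies. A fruiting body protein SC7 gene (TBIU011590) had 137 FPKM in control and 256 FPKM in irradiated fruit bodies.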

How the data were processed

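RNA-seq of fruit bodies gave 2 libraries, 1 per group, told apart by column headers that carry each sample's description. Per the file headers, the authors deposited FPKM per assembled transcript, a log2 fold change, and p-values and q-values. The authors also deposited a pair of values with no unit or sample name, which behaves as estimated reads divided by a factor per library. Their sum is called scaled reads, and it served as a measure of depth and for the estimated lengths. The pair itself served for the authors' ratio and its counting intervals. The sources used here do not name the assembler, aligner or annotation.

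Isoforms of a gene were added up, for FPKM as for scaled values, and 100 scaled reads was the minimum for a gene. The log2 ratio used a pseudocount of 1 FPKM, which pulls ratios of low genes towards 0, and 2-fold was the threshold. Intervals are Clopper-Pearson 95% on rounded scaled values, given to 3 digits and treated as counts. The factor per library is unknown, so the intervals approximate counting error, and they cover nothing else. The 2-fold calls and the intervals were tested on simulated counts with counting error alone. That simulation held no FPKM, isoforms, factor per library or variation among fruit bodies. With 1 library per group no test was made and no p-value computed.

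Members and lists were chosen with earlier results of these data known. Text patterns on descriptions made the lists. Named genes were all members, the 5 nearest to the top member, and from each list the 2 highest, the 2 lowest and the most abundant, of which some are given. UBQ11 was named after its value was seen. Alternatives were pseudocounts of 0.1 and 5 FPKM, median-centred ratios, the authors' scaled values (plus 1), the isoform with the most scaled reads, no minimum or 1000 scaled reads, the leading isoform's description, and summing by cluster. No sequences or genome coordinates were used here. Python 3.11.15, pandas 2.3.3 and SciPy 1.17.1 were used.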

Additional observations from a re-analysis of the deposited data

How the results depend on the processing

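Under every alternative run except summing by cluster, 4 members were at least 2-fold lower, and the 2 others stayed within 2-fold in the 5 alternatives recomputed gene by gene. Summed by cluster, 3 of 5 clusters were at least 2-fold lower and the median log2 ratio was -2.08, since the pair of cluster TR27641 then counts once. With a minimum of 1000 scaled reads the 2 scarce genes drop out, and the median of the remaining 4 was -2.54. In the other alternatives the median lay between -2.38 and -2.22. The ratio of TBIU058247 was -2.58 to -2.86 and that of TBIU018746 was -2.81 to -2.93. No alternative reversed the sign of a member. Over all genes, no minimum gave 14182 higher and 11862 lower of 43428 genes, a minimum of 1000 gave 207 and 226 of 3168, and a pseudocount of 5 FPKM gave 503 higher. With median-centred ratios, which remove a shift of 0.10, 598 were higher and 853 lower. Over the protease and transporter lists, no minimum gave 71 higher and 54 lower of 230 genes, and a minimum of 1000 gave 3 and 3 of 29. The cause of these differences was not tested. No paired analysis was possible because each group has 1 library and no test was run. Leaving out a replicate was not possible for the same reason.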
